A study of Mus musculus with 10 samples.

Results

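Livers of untreated mice that lack the mixed-lineage kinase MLK3 were compared with livers of untreated wild-type mice. The members are the libraries whose titles name a water control: 2 from knockout (KO) and 2 from wild-type (WT) liver, 4 of the 10 libraries in the series. All 4 mice were 11 months old, of strain C57BL/6 and kept on a commercial diet with plain autoclaved water, and none of the 4 received a carcinogen. The other 6 libraries are liver tumours of WT (3) and KO (3) mice, aged 11 months too. They were started by 1 injection of diethylnitrosamine (DEN, 5 µg for each g of the pup) at an age of 2 weeks and promoted, after a lag of 1 week, by 0.05% phenobarbital (PB) in the water. The labels name male pups for the injection and describe the genotypes as matched for sex and age. The sources used here do not say how the MLK3 gene was inactivated, whether in all cells, whether KO and WT mice were littermates, or at which hour tissue was taken.

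MLK3, encoded by Map3k11, is a kinase switched on by small GTPases of the Rac and Cdc42 type. It phosphorylates the kinases MKK4 and MKK7 (Map2k4 and Map2k7), which in turn phosphorylate JNK (Mapk8 and Mapk9). In liver, JNK signalling is known for its parts in cell death, insulin resistance and fat storage. A comparison of untreated livers asks what the absence of MLK3 changes before any carcinogen is given.

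RNA was read as 3' tags, in which a read lies near the 3' end of a transcript, so levels are given in CPM (counts brought to a common library total, with TMM factors) without a correction for length. The livers had about 15645600 to 18081500 counts each and 14119 to 15166 genes with at least 1 count. Albumin, the main secreted product of hepatocytes, took 2.05% to 2.79% of their counts, and the summed CPM of the oncofetal marker list was 94.5 to 228 in livers against 1303 to 4280 in 5 of the 6 tumours. In the library labelled KO tumour 2 it was 137 CPM, within the range of the livers, so tumour values below are also given without it where a result rests on them. In the stress and acute phase lists WT liver 1 stood apart: it held the highest level of 21 of 25 endoplasmic reticulum stress genes with at least 10 CPM. It also had the highest level of 16 of 18 heat shock genes and of 23 of 26 acute phase genes. These lists are given below with and without it.

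How many genes differed between the genotypes depended on the test, and with edgeR almost none passed. Of 15811 genes tested with edgeR's quasi-likelihood test, 1 was called at an adjusted p under 0.05 (0.00632%): Fam102b, which fell in KO liver, while 0 genes were called higher (0%). An unadjusted p under 0.05 was found for 1151 genes (7.28%), 536 of them higher (3.39%) and 615 lower in KO (3.89%), where 791 would be a share of 0.05. DESeq2 called 64 higher and 87 lower genes on the same 10 libraries, and limma voom with a variance for each group called 0 in either direction (854 genes at an unadjusted p under 0.05, against 1513 by DESeq2). In edgeR, leaving out 1 library at a time gave 0 to 3 higher and 0 to 6 lower calls, with most (3 and 6) when WT liver 1 was left out.

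How large a difference these 4 libraries could show depended on the level of the gene. Among 1506 tested genes above 100 CPM the median standard error (SE) of the log2 fold change was 0.26, and the median 95% interval reached a 1.47-fold change to either side. For 5876 genes at 10 to 100 CPM that reach was 1.79-fold, and for 5292 genes at 1 to 10 CPM it was 5.95-fold. In this last class the 2 WT livers differed from each other at least 2-fold in 47.4% of genes and the 2 KO livers in 50.1%. For a single value, an exact permutation test of 2 against 2 libraries cannot give a two-sided p below 1 in 3. Values of genes that did not pass the test are therefore given as levels, with no claim that they changed.

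The libraries of the 2 genotypes did not overlap, with means at least 2-fold apart and at least 1 CPM in the higher group, for 926 genes higher in KO (5.86%) and 1025 lower (6.48%). Without the demand on size, 2446 genes were higher (15.5%) and 2449 lower (15.5%). Higher and lower genes were thus about equal in number, and the median log2 fold change over all tested genes was 0. Together, genes without overlap were 31% of those tested. With 2 against 2 libraries the groups stay apart in 1 in 3 of equally likely orders. Absence of overlap alone therefore shows no genotype difference.

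Map3k11 itself (ENSMUSG00000004054.8), on the plus strand of chromosome 19 from 5688742 to 5702865 in GRCm38, was found at 7.92 and 14.9 CPM in the WT livers and at 5.38 and 5.81 CPM in the KO livers. Both KO values lay below both WT values, but the difference did not pass the test (log2 fold change -1.03, SE 0.58, adjusted p = 0.72). Reads of Map3k11 were present in every KO library. The tags sample only the 3' end, and the extent of the deletion is unknown from the labels. The knockout and the labels therefore cannot be checked by this level.

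The kinase cascade around MLK3 showed little. Of the 29 tested members of the MLK and JNK list, 0 were called, and the median log2 fold change was -0.01. An unadjusted p under 0.05 was found for 1 higher and 0 lower, beside 3.39% and 3.89% of all tested genes. The 1 gene was Mapk14, which encodes the p38α kinase, at 36.8 and 22.5 CPM in WT and 38.6 and 72 CPM in KO liver (adjusted p = 0.685). Among the kinases downstream, Map2k4 had counts of 498 and 334 in WT and 721 and 458 in KO, and Map2k7 had 500 and 363 against 438 and 291. Mapk8, which encodes JNK1, stood at 39 and 17.8 CPM in WT and 34.1 and 17.1 CPM in KO liver. Mapk9, which encodes JNK2, stood at 39.7 and 38.4 against 30.8 and 39.1 CPM. For both JNK genes the 2 genotypes overlapped (log2 fold change -0.15, SE 0.40, for Mapk8 and -0.16, SE 0.33, for Mapk9). Among the closest relatives of MLK3, Map3k10, encoding MLK2, overlapped, with 50 and 1 counts in WT and 19 and 47 in KO liver. Map3k9, encoding MLK1, had 0 counts in all 4 livers and was not tested.

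Genes beside the targeted locus were examined because a knockout can carry DNA of another strain around it. Within 2 Mb of Map3k11, 140 other genes were tested and edgeR called 0. DESeq2 called 2 of them higher, Carns1 and Flrt1 (adjusted p = 0.033 and 0.028), and edgeR without the filter on low counts called Chka lower (adjusted p = 0.00036). An unadjusted p under 0.05 was seen for 7 higher and 4 lower genes, 7.86% of the 140, near the 7.28% of all tested genes. The most abundant of the 11 were Chka, encoding a choline kinase, at 129 and 97.1 CPM in WT and 58.6 and 19.7 CPM in KO, and Slc25a45, encoding a mitochondrial carrier, at 35.4 and 32.4 against 61.4 and 69.3 CPM. Both kept the genotypes apart, yet neither passed the edgeR test with the filter (adjusted p = 0.65 and 0.68). The labels name strain C57BL/6 for all mice, and a contribution of flanking DNA was not tested.

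Fam102b (ENSMUSG00000040339.10, chromosome 3, 108970997 to 109027607, minus strand), a gene of little known function, was the 1 gene called. It had 84 and 54 counts in the WT livers, or 5.28 and 3.41 CPM, and 0 counts in each KO liver. With 3 counts per library as the limit for a count of 0, the gene was at least 22.6-fold lower in KO liver (adjusted p = 0.047). In tumours it had 356, 275 and 185 counts in WT and 74, 74 and 99 in KO mice, so that all KO tumours again lay below all WT tumours, though not beyond the test (log2 fold change -1.48, adjusted p = 0.17). The fall in liver was larger than the difference in tumours (interaction, adjusted p = 0.011). The tumours contribute to the estimate of spread behind this call. With the 4 livers alone the adjusted p was 0.99, and it was over 0.05 when any 1 of the tumours or KO livers was left out, 8 of the 10 libraries.

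**Figure D1:**
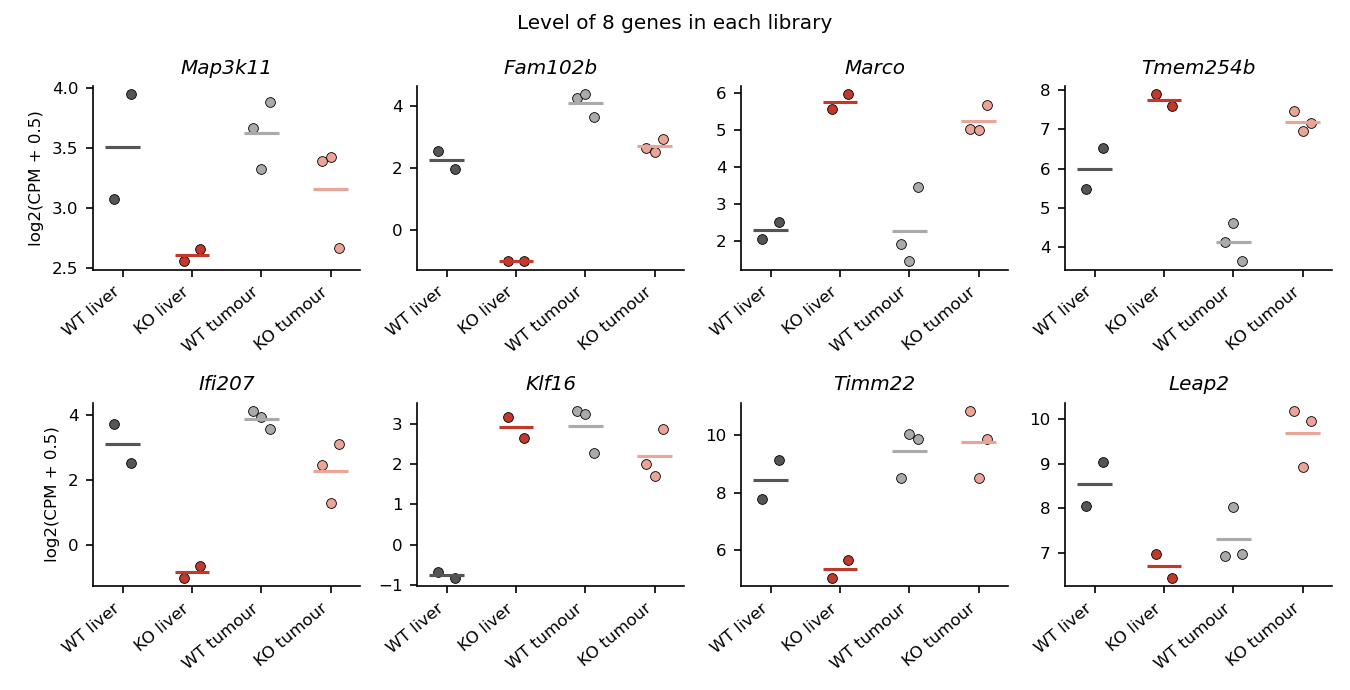
Levels of 8 genes in each library as log2(CPM + 0.5), by genotype and tissue. Each point is 1 library and each line the mean of a group. Fam102b was at 0 counts in both KO livers, Marco and Tmem254b were higher in KO than in WT in liver and in tumours, and Timm22 and Leap2 were low in KO liver but not in KO tumours.

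Marco was the gene with the smallest p among those higher in KO liver. It encodes a scavenger receptor that Kupffer cells, the resident macrophages of liver, use to take up bacteria and particles. Levels were 3.71 and 5.24 CPM in WT liver and 47.4 and 62.4 CPM in KO liver, which is 3.62 higher on the log2 scale (SE 0.61) and did not pass the edgeR test (adjusted p = 0.12). At about the same fold it passed with DESeq2 (adjusted p = 6.9e-05), without the filter on low counts (1.8e-11), with a replicate block (0.029) and without WT tumour 3 (0.012). The KO livers lay far above the WT livers, with no overlap. In tumours, which are other libraries, Marco rose in KO mice: counts were 64, 31 and 165 in WT and 417, 453 and 709 in KO (log2 fold change 2.83, adjusted p = 0.0025). Without KO tumour 2 the log2 fold change in tumours was 2.95 (adjusted p = 0.0059). The difference in liver and that in tumours were not told apart by the test (interaction 0.79, adjusted p = 0.74).

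Other Kupffer cell genes lay closer together. Of 36 tested macrophage markers 2 had an unadjusted p under 0.05 higher in KO and 2 lower, near the 3.39% and 3.89% of all tested genes. Without overlap 7 were higher and 2 lower, beside 15.5% of all tested genes each way, and their median log2 fold change was 0.16 beside 0 for all genes. Clec4f, a lectin confined to Kupffer cells in the liver, had 525 and 603 counts in WT and 754 and 964 in KO liver, without overlap (log2 fold change 0.65, SE 0.41). Cd5l, a secreted macrophage protein, had 2124 and 2367 against 2393 and 3376 counts, which overlapped once scaled. Timd4, a receptor for dying cells on resident Kupffer cells, had 140 and 55 against 89 and 11 counts, with overlap. Summed over the list, levels were 1141 and 1208 CPM in WT and 1095 and 1677 CPM in KO liver. In bulk tissue, fewer cells of a type and less RNA per cell cannot be told apart.

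Itgax, encoding the integrin CD11c of dendritic cells and some macrophages, was the other marker of the list with a small p in the higher direction. It had 2 and 1 counts in WT and 83 and 107 in KO liver, a ratio of 63.7 (exact 95% counting interval 21.5 to 312), with an adjusted p of 0.37. Tumours of both genotypes had Itgax reads, 300, 32 and 66 in WT and 104, 16 and 52 in KO. Nckap1l, which encodes a regulator of actin in blood cells, had 16 and 5 counts in WT and 242 and 66 in KO liver (adjusted p = 0.32). Fcgr1 and Gpnmb, both macrophage genes, were low in KO, at 73 and 68 against 0 and 14 counts and at 54 and 9 against 3 and 2 counts.

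The other genes with the smallest p among those higher in KO did not belong to 1 pathway. Klf16, a transcription factor of the Krüppel-like family, had 2 and 1 counts in WT and 150 and 82 in KO liver, a ratio of 77.8 (interval 26.3 to 380). Npdc1 had 4 and 1 against 106 and 99 counts, and Nim1k, a kinase gene, 0 and 2 against 125 and 118 counts (ratio 122, interval 33.5 to 1010). These intervals cover counting error only, and reads without molecular identifiers are not independent molecules. Adss, an enzyme of purine synthesis, stood at 21.9 and 16.2 CPM in WT and 44.8 and 48.3 CPM in KO. M6pr, a sorting receptor for lysosomal enzymes, stood at 18.6 and 27.8 against 51.5 and 52.7 CPM, and Ddx56, an RNA helicase of the nucleolus, at 12.9 and 14.1 against 35.8 and 29.2 CPM. In each of these genes the KO livers were above both WT livers, with adjusted p between 0.16 and 0.43 by edgeR.

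Tmem254b, which encodes a membrane protein, stood at 44.1 and 91.5 CPM in WT liver and 237 and 193 CPM in KO liver (log2 fold change 1.67, SE 0.36, adjusted p = 0.33). It has near-identical neighbouring copies among which reads can be split, so its level is uncertain. In tumours it rose in KO mice by 3.06 on the log2 scale (adjusted p = 2.8e-05), and by 3.17 without KO tumour 2 (adjusted p = 6.8e-05).

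Among genes with small p that were lower in KO liver, Ifi207, an interferon-inducible gene of the HIN200 family, had 203 and 84 counts in WT and 0 and 2 in KO. The ratio was 143 (interval 39.2 to 1180; adjusted p = 0.12). In tumours Ifi207 counts were 329, 205 and 179 in WT and 65, 28 and 114 in KO, again without overlap (log2 fold change -1.52, adjusted p = 0.30). Cep170, a centrosome gene, was at 5.4 and 4.92 CPM in WT and 0.286 and 0.212 CPM in KO (adjusted p = 0.22). Sec24d, a coat protein of vesicles that leave the endoplasmic reticulum, stood at 113 and 70 CPM in WT and 36.3 and 28.2 CPM in KO (adjusted p = 0.22). Mef2a, a transcription factor, was at 51.3 and 58.5 against 24.5 and 16.9 CPM, and Cks1b, a subunit of cyclin-dependent kinases, at 18.7 and 18.6 against 7.15 and 4.89 CPM. Cks1b was also lower without overlap in KO tumours (832, 474 and 637 against 325, 224 and 252 counts, log2 fold change -1.01, adjusted p = 0.072).

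In several other genes both WT livers stayed above both KO livers, in some with a wide gap between the 2 WT livers. Timm22, part of the import machinery of the inner mitochondrial membrane, was at 219 and 559 CPM in WT and 32.4 and 50.6 CPM in KO liver (log2 fold change -3.23, SE 0.66, adjusted p = 0.26). Dennd4a, a regulator of Rab GTPases, was at 86.9 and 232 against 26.5 and 25.6 CPM (adjusted p = 0.36). Leap2, a secreted antagonist of the ghrelin receptor made by liver, was at 264 and 525 against 126 and 86.7 CPM (log2 fold change -1.89, adjusted p = 0.38). In KO tumours none of these 3 was lower: Leap2 rose there by 2.37 on the log2 scale (adjusted p = 0.0014; without KO tumour 2 the difference between liver and tumours was -4.56 beside -4.27), while the log2 fold changes of Timm22 and Dennd4a were 0.43 and 0.40. Exoc3l4 had 25 and 184 counts in WT and 0 and 2 in KO liver, Tbp, the TATA-binding protein, 46 and 151 against 6 and 2, and Ptpn23, a phosphatase of endosomal sorting, 287 and 253 against 34 and 4. Rsg1 had 78 and 92 counts against 0 and 0, at least 27.9-fold lower with 3 counts per library as the limit, and Rprd1a had 154 and 38 against 0 and 0, at least 31.4-fold lower.

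Differences seen in liver were set beside those in tumours, whose libraries share none with the livers. Of the 24 genes with the smallest p, DESeq2 called 11 higher and 11 lower and edgeR without the filter on low counts 9 higher and 10 lower, where edgeR with the filter called 0. Of the 12 named genes higher in KO liver, 3 had the same direction in tumours and 2 of them (Marco and Tmem254b) passed the test there, where 4.52% of all tested genes were called. Of the 12 named genes lower in KO liver, 7 had the same direction and 0 passed. For 8 of the 24 the interaction was called, against 1.59% of all tested genes, but the 24 were chosen for their liver difference. Among the 926 genes higher without overlap in liver 46.1% had the same direction in tumours, and of the 1025 lower genes 52.3% had. Across all 15811 genes the 2 log2 fold changes had a Pearson correlation of -0.015. This is a description across genes, which are not independent replicates.

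**Figure D2:**
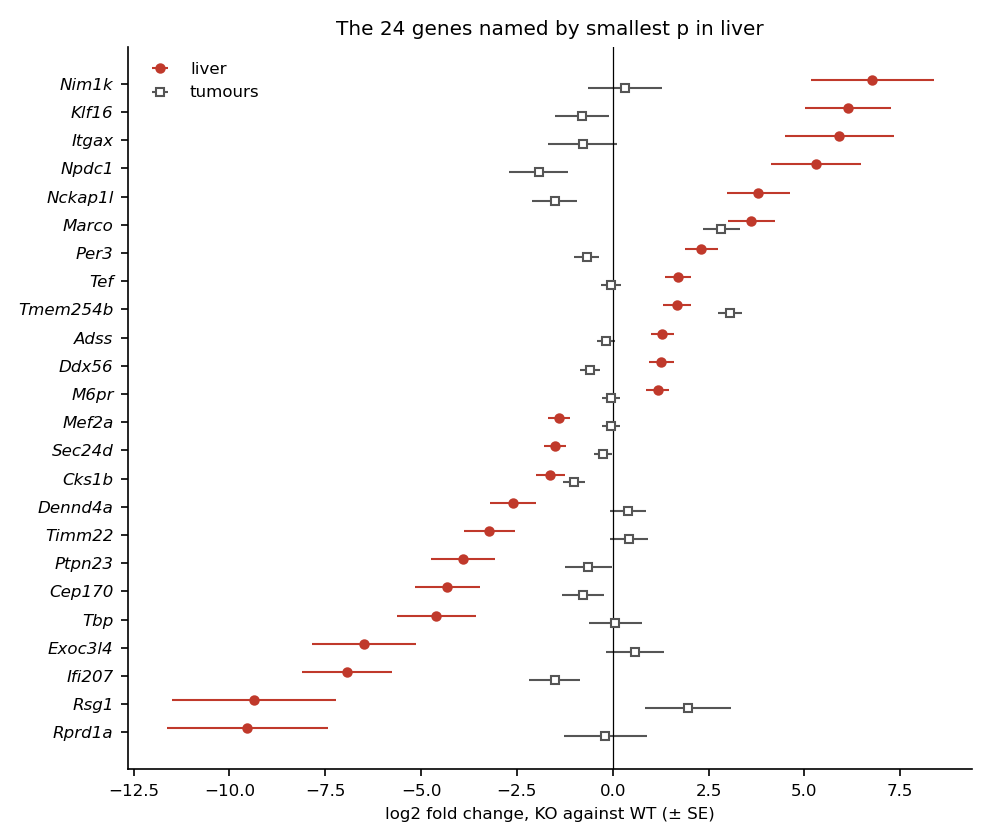
Log2 fold changes of KO against WT for the 24 genes named by the smallest p in liver, with SE, in liver (filled circles) and tumours (open squares). Fitted values of genes with few or no counts in a group depend on the prior count and are no measure of size. Marco, at 3.62 and 2.83, and Tmem254b, at 1.67 and 3.06, lie on the same side in both tissues, and most of the others have a tumour value near 0 or of opposite sign.

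The clock list had the highest share of members with a small unadjusted p. In every liver cell a loop of transcription factors drives daily rhythms: CLOCK or NPAS2 with BMAL1 (Arntl) activate genes through E-boxes, their products PER and CRY repress them, and REV-ERB (Nr1d1, Nr1d2) and ROR proteins act on Arntl. TEF, HLF and DBP activate genes through D-boxes, where NFIL3 represses. Of 24 tested clock genes, 8 had an unadjusted p under 0.05 higher in KO liver (background 3.39%) and 2 lower (background 3.89%). Without overlap, 10 were higher and 4 lower, beside 15.5% of all tested genes each way, and the median log2 fold change was 0.37 beside 0 for all genes. None was called over all genes by edgeR with all libraries and the filter (adjusted p 0.16 to 0.68 for the 10 with a small unadjusted p). DESeq2 called 5 higher: Per3 and Tef (adjusted p = 0.0017 each), Wee1 (0.021), Ciart (0.028) and Usp2 (0.034). Without the filter on low counts edgeR called Per3 (5.9e-06), Tef (1.1e-05) and Usp2 (1.5e-05). The smallest adjusted p of that fit were those of Mt2 (8.2e-43), Saa2 (2.3e-31) and Mt1 (8.8e-25). These are genes whose counts differed widely between the 2 WT livers, so a small p in that fit does not mean that replicates were close. Without WT liver 2 the log2 fold change of Per3 was 3.02. The clock list was taken up with earlier results of these data known.

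Sequence upstream of 4 of these genes is shown with the motifs of the loop, and for Arntl 30 bases around its motif. Capitals mark the E-box CACGTG, the D-box TTATGTAA or the ROR element core TAGGTCA, searched on both strands. Sequences are from RefSeq on GRCm38.p6, 5′ to 3′ on the strand of the gene, and end at the base before the annotated start, except that of Arntl, which lies 19 to 48 bases after 1 of its 2 starts. Per3, higher in KO, shows a pair of D-boxes, and Ciart, also higher, 3 E-boxes. Tef, higher too and with 2 starts of which 1 is shown, has 1 E-box. Arntl and Nfil3, both lower, have 1 ROR element core each. The genes shown were picked from those with a motif. The other clock genes with an E-box overlapped between the genotypes. Their log2 fold changes were -0.82 for Cry1, -0.35 for Per1 and 0.45 for Bhlhe41.
Per3, chr4:151044666-151044915, minus strand: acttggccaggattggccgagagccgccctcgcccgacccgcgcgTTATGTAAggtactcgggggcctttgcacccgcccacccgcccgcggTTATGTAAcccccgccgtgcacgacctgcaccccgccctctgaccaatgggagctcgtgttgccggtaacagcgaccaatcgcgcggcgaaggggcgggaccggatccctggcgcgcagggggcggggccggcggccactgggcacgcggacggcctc
Ciart, chr3:95882229-95882478, minus strand: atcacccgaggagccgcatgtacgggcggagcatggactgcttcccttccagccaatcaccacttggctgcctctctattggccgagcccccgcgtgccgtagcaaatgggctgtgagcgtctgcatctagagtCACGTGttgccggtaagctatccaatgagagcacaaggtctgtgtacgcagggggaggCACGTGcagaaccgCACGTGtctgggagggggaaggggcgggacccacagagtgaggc
Tef, chr15:81802423-81802672, plus strand: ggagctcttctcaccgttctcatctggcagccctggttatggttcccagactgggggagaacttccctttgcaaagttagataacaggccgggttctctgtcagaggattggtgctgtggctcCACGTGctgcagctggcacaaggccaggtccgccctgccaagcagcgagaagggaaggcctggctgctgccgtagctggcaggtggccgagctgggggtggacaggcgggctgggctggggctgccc
Arntl, chr7:113207530-113207559, plus strand: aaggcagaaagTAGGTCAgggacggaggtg
Nfil3, chr13:52981040-52981289, minus strand: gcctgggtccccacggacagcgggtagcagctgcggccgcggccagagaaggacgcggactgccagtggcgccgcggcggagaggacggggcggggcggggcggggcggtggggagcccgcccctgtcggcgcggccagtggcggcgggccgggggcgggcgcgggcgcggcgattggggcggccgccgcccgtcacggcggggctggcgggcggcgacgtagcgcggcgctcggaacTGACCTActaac

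Among the 19 clock genes with a window in the RefSeq table (250 bases before to 50 after a start), the ROR element core was found in 2, Arntl and Nfil3, and in 2.61% of all 32851 windows. The D-box was found in Per3 alone of the 19 and in 0.94% of all windows. The E-box was found in 5 (Bhlhe41, Ciart, Cry1, Per1 and Tef) and in 7.15% of all windows. A gene was counted if any of its windows held the motif, while the shares are per window. Tef and Arntl have 2 windows each. A match describes the letters of these windows and shows neither a bound site nor a cause.

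Arntl and Npas2, which form the activator, were lower in KO liver without overlap. Arntl stood at 45.4 and 30 CPM in WT and 7.27 and 13.7 CPM in KO liver (log2 fold change -1.85, SE 0.68, adjusted p = 0.62). Npas2 had 64 and 65 counts in WT and 1 and 0 in KO, a ratio of 128 (interval 22.6 to 5110). Clock, the other partner of BMAL1, overlapped between the genotypes at 59.2 and 75.9 against 60.4 and 50.1 CPM. Nfil3 was at 56.2 and 41.4 CPM in WT and at 23.9 and 11.5 CPM in KO (log2 fold change -1.46, SE 0.52, adjusted p = 0.61).

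Among the genes higher in KO, Per3, a member of the PER family, was at 3.77 and 8.64 CPM in WT and 34.8 and 26.6 CPM in KO (log2 fold change 2.30, SE 0.43, adjusted p = 0.16). Tef, the D-box activator, was at 77.1 and 63.3 against 211 and 244 CPM (log2 fold change 1.70, SE 0.34, adjusted p = 0.22), and its relative Hlf at 31.9 and 55.9 against 84.2 and 83.7 CPM. Both KO livers lay above both WT livers for each. Nr1d2 was at 61.9 and 45.3 CPM in WT and 73.1 and 104 CPM in KO, and Nr1d1, with a larger p, at 27.7 and 20.2 against 49.8 and 33.6 CPM. Ciart, a repressor of CLOCK and BMAL1, had 2 and 0 counts in WT and 53 and 26 in KO (ratio 39.7, interval 10.6 to 334). Usp2, a deubiquitinase with a daily rhythm, was at 8.29 and 12 against 26.3 and 80.7 CPM, and Wee1, a cell cycle kinase under clock control, at 2.01 and 0.757 against 9.67 and 7.72 CPM.

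The remaining clock genes differed less or overlapped. Per1 overlapped widely, with 127 and 18 counts in WT and 0 and 102 in KO liver, and so did Per2 with 206 and 53 against 170 and 312. Dbp, a D-box activator like Tef, had 23 and 30 counts in WT and 14 and 7 in KO, the opposite direction to Tef, at a level too low for a narrow interval (log2 fold change -1.35, SE 1.55). Cry2 was higher without overlap, at 24.2 and 20.8 against 34.3 and 40.4 CPM, while Cry1, Bhlhe40, Bhlhe41, Rora, Csnk1d, Csnk1e and Noct overlapped between the genotypes. Without WT liver 1, 7 of the 24 had an unadjusted p under 0.05 higher and 0 lower, and the median log2 fold change was 0.49.

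In tumours the clock genes with a small unadjusted p in liver mostly took another direction. Of the 10, 3 had the sign they had in liver. Between KO and WT tumours 8 of the 24 had an unadjusted p under 0.05, and 0 were called. Per3 was at -0.68 in tumours, and its interaction was called (2.98, adjusted p = 0.0086), as was that of Nfil3 (-3.03, adjusted p = 0.033). Without KO tumour 2 the interaction of Nfil3 was not called (-2.92, adjusted p = 0.072), and it was called in 4 of the 10 fits with 1 library left out. As the hour of tissue collection is not given, a difference in clock phase between mice and a difference in genotype cannot be told apart.

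**Figure D3:**
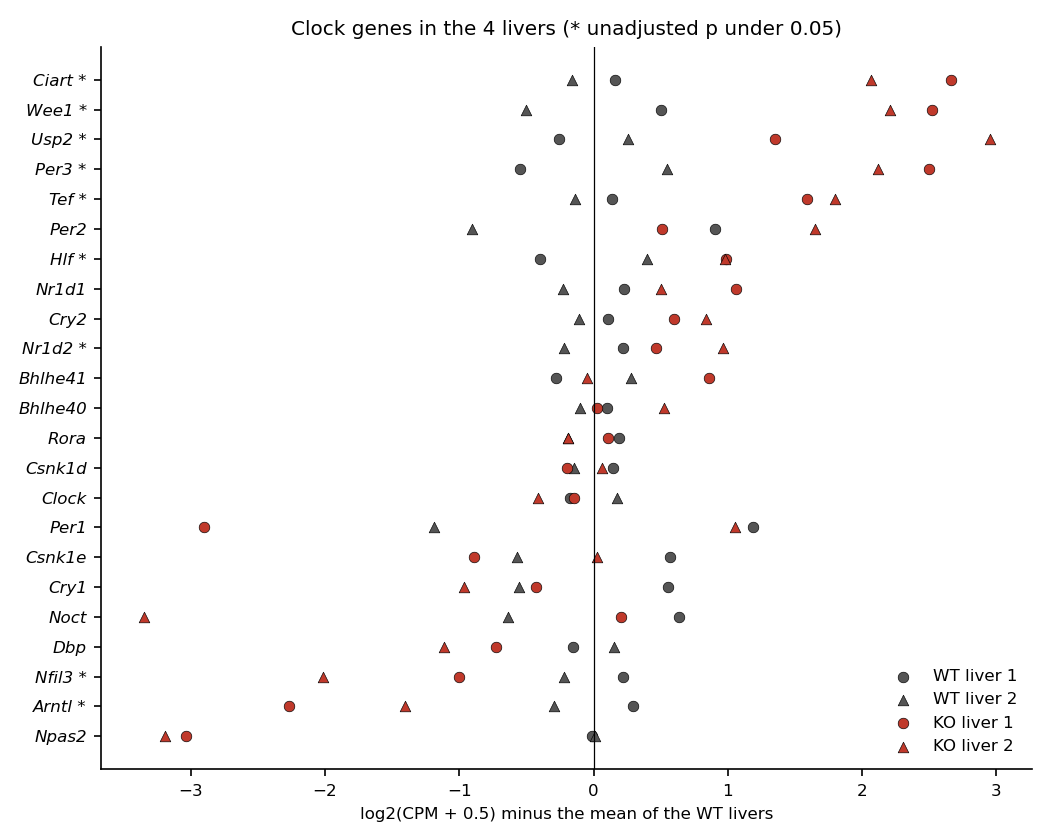
Levels of clock genes in each of the 4 livers, as log2(CPM + 0.5) minus the mean of the WT livers. Dark gray marks are WT and red marks KO, with circles for replicate 1, triangles for replicate 2 and an asterisk for an unadjusted p under 0.05. KO marks of Per3, Tef, Wee1, Usp2 and Ciart lie to the right of both WT marks, and those of Arntl, Nfil3, Npas2 and Dbp to the left.

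Genes of protein folding stress and the acute phase differed between the WT livers more than between the genotypes. Summed over the endoplasmic reticulum stress list, levels were 15823 and 6612 CPM in WT and 8564 and 8168 CPM in KO liver, so that the KO livers lay between the WT livers. Hspa5, the chaperone BiP, had 84369 and 22507 counts in WT and 38055 and 22167 in KO liver. Heat shock genes summed to 6486 and 3048 CPM in WT and 4589 and 4095 CPM in KO. The acute phase list summed to 63554 and 39292 CPM against 36890 and 46510 CPM.

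Leaving out WT liver 1 turned the sign of the median of all 3 lists. This library was singled out for its high levels in these same lists, and only 1 WT liver remained. The turn is therefore no separate evidence, and no other liver was left out of the lists. Of 32 acute phase genes 27 had a negative log2 fold change with all libraries (median -0.21), and 11 without WT liver 1 (median 0.12). With all libraries 4 had an unadjusted p under 0.05, all lower, beside 3.89% of all tested genes. EdgeR without the filter on low counts called 6 of the 32 lower, Mt1, Mt2, Saa1 and Saa2 among them. That fit called 72 of 21045 genes lower. For the stress list the median went from -0.26 to 0.17, and for heat shock genes from -0.26 to 0.46. With genes at 0 in a group set to their bound, the stress list had a median of -0.255 and the heat shock list of -0.255 over all libraries. The metallothioneins, small metal-binding proteins, showed it most: Mt1 had 21373 and 649 counts in WT and 571 and 1294 in KO, and Mt2 40943 and 702 against 212 and 1150. The serum amyloids were lower in KO without overlap, Saa1 at 29864 and 7245 against 1136 and 2787 counts and Saa2 at 24085 and 3405 against 681 and 995. Their log2 fold changes were -3.15 (SE 1.18) and -3.98 (SE 1.38). Dnajb9, a chaperone cofactor of the endoplasmic reticulum, was at 139 and 40.1 against 32.4 and 32.7 CPM.

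**Figure D4:**
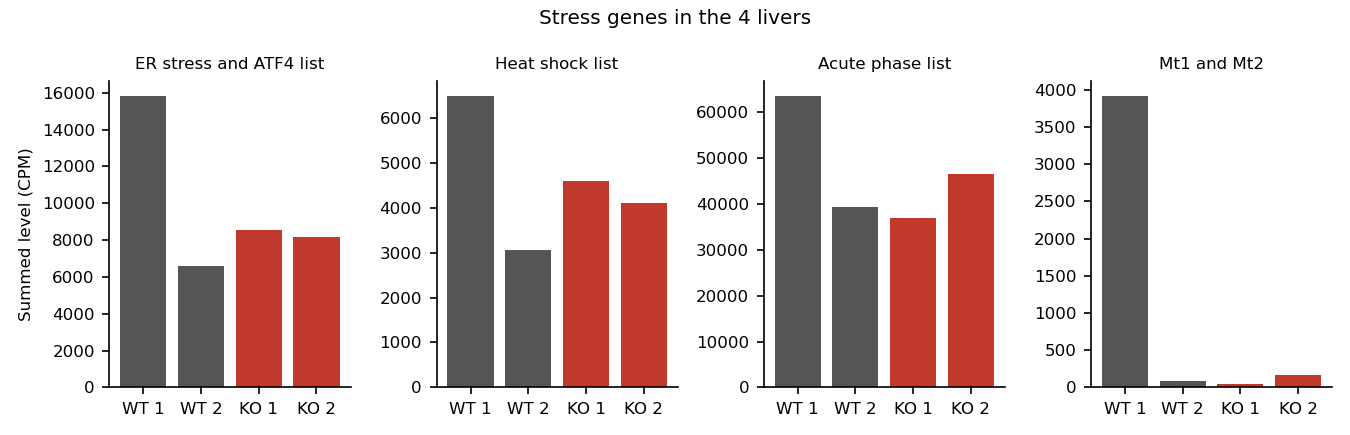
Summed CPM in each of the 4 livers for the endoplasmic reticulum (ER) stress and ATF4 list, the heat shock list, the acute phase list and Mt1 with Mt2. Dark gray bars are WT and red bars KO, each bar being 1 library. WT 1 is the highest bar in all 4 panels.

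Fat synthesis genes had 15 positive and 13 negative log2 fold changes. Without overlap 9 were higher and 5 lower, beside 15.5% of all tested genes each way. Of 28 tested, 4 had an unadjusted p under 0.05 higher and 1 lower, beside 3.39% and 3.89% of all tested genes, and the median log2 fold change was 0.08. Without WT liver 1 the median was 0.39, with 19 positive and 9 negative. Srebf1, the master regulator of lipogenesis, had 523 and 1365 counts in WT and 1897 and 2184 in KO liver (log2 fold change 1.15, SE 0.37). Mid1ip1, an activator of acetyl-CoA carboxylase, had 725 and 506 against 1254 and 966, and Scd2, a desaturase low in adult liver, was at 1.95 and 1.01 against 12 and 13.9 CPM. Pnpla3, a lipid droplet protein, had 0 and 1 counts in WT and 16 and 45 in KO (ratio 61.3, interval 10.6 to 2460). Of the main enzymes, fatty acid synthase, Fasn, had 6340 and 6715 against 11614 and 6892 counts, higher without overlap, and ATP citrate lyase, Acly, which supplies its substrate, 3120 and 3768 against 2808 and 1993, lower without overlap. The desaturase Scd1 overlapped with 54840 and 22258 against 79934 and 38556. Elovl3, an elongase higher in male liver, was the 1 lower member, at 391 and 376 CPM in WT and 191 and 160 CPM in KO (log2 fold change -1.13, SE 0.36, adjusted p = 0.55).

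Of 27 tested genes of cholesterol synthesis, 2 had an unadjusted p under 0.05 higher in KO and 0 lower, beside 3.39% and 3.89% of all tested genes, and the median log2 fold change was -0.05. Leaving out WT liver 1 turned the counts to 0 higher and 4 lower, with a median of -0.17. Fatty acid oxidation genes had 32 of 41 positive log2 fold changes (median 0.20). Without overlap 12 were higher and 2 lower, beside 15.5% of all tested genes each way. In each direction 2 had an unadjusted p under 0.05, beside 3.39% of all tested genes higher and 3.89% lower. Without WT liver 1 the counts at an unadjusted p under 0.05 were 0 higher and 3 lower. Angptl4, a PPARα target that inhibits lipoprotein lipase, was at 107 and 44.2 CPM in WT and 14.9 and 25.5 CPM in KO (log2 fold change -1.91, SE 0.48, adjusted p = 0.43). Fgf21, a fasting hormone of liver, had 18 and 12 counts in WT and 0 and 0 in KO, at least 4.91-fold lower with 3 counts per library as the limit (adjusted p = 0.36). G6pc, the last step of glucose release, was at 182 and 318 against 138 and 125 CPM, and G0s2, an inhibitor of the lipase ATGL, at 374 and 176 against 139 and 110 CPM.

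Marker genes of the liver zones did not pass the test between the genotypes. Glul, glutamine synthetase of pericentral hepatocytes, was at 1159 and 1502 CPM in WT and 907 and 1088 CPM in KO, lower without overlap but not beyond the test (log2 fold change -0.42, SE 0.31, adjusted p = 0.79). Its 95% interval ran from -1.07 to 0.24. Cyp2f2, of periportal hepatocytes, overlapped (log2 fold change 0.20, interval -0.41 to 0.81). In tumours both rose in KO mice, by 3.18 and 4.11 on the log2 scale (3.09 and 3.79 without KO tumour 2), and both interactions were called. The pericentral list had 0 members with an unadjusted p under 0.05 higher and 1 lower of 34, the periportal list 2 and 2 of 30, beside 3.39% and 3.89% of all tested genes. When WT liver 1 was left out, the pericentral counts were 2 and 3, and the median log2 fold change went from 0.01 to -0.28 with 22 of 34 negative. Cyp2b10, the classic target of phenobarbital through the receptor CAR, had 43 and 0 counts in WT and 22 and 0 in KO liver.

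Male-biased genes had a median log2 fold change of -0.26, with 26 of 38 negative and 15 lower without overlap against 7 higher (15.5% of all tested genes in each direction). The list holds 12 genes of the major urinary protein family, pheromone carriers secreted by male liver. The family took 12.05% ± 0.43 of counts in WT and 9.67% ± 1.7 in KO liver (SD, n = 2). Mup9 was at 240 and 207 CPM in WT and 60.8 and 138 CPM in KO (adjusted p = 0.54), and Mup10 had 1241 and 1032 against 528 and 731 counts. Mup21 was higher without overlap with 1973 and 2686 against 4322 and 3082 counts, as was Mup3 with 111572 and 96529 against 139466 and 115519. Mup copies are near-identical, and reads may be split among them. Igfbp2, a binding protein of IGF1, was at 295 and 357 CPM in WT and 578 and 567 CPM in KO (log2 fold change 0.81, SE 0.31, adjusted p = 0.63).

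Immediate early genes, many of which encode parts of AP-1 or its relatives and are induced through kinases such as JNK, had 7 members with an unadjusted p under 0.05 lower in KO and 2 higher of 30 tested, beside 3.89% and 3.39% of all tested genes. Without overlap 12 were lower and 4 higher, beside 15.5% each way. Jun, the substrate for which JNK is named, had 462 and 497 counts in WT and 323 and 140 in KO liver (log2 fold change -1.09, SE 0.56), without overlap. Atf3 had 17 and 12 counts against 0 and 0, at least 4.75-fold lower, Btg2 382 and 161 against 136 and 10, Dusp1 542 and 863 against 342 and 316, and Fosl2 577 and 240 against 66 and 190. Nr4a1 was among the 2 higher with 1 and 2 counts in WT and 97 and 33 in KO (ratio 43.6, interval 14.6 to 214), and Fos and Egr1 overlapped. Over the list 17 log2 fold changes were negative and 12 positive, with a median of -0.08. Without WT liver 1, 4 were lower and 3 higher at an unadjusted p under 0.05, and the median was 0.

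Among genes of growth arrest, Cdkn1a, encoding p21, had 925 and 111 counts in WT and 73 and 63 in KO liver (log2 fold change -2.91, SE 0.80, adjusted p = 0.43). Without WT liver 1 its log2 fold change was -0.70. Trp53inp1, a p53 target, was at 52.2 and 54.7 against 21.9 and 18.3 CPM, the 2 libraries of each genotype close together (log2 fold change -1.41, SE 0.38, adjusted p = 0.43). The list of p53 targets and apoptosis regulators had 14 positive and 19 negative log2 fold changes among 33 tested. An unadjusted p under 0.05 was found for 2 higher and 3 lower, beside 3.39% and 3.89% of all tested genes. Without overlap 2 were higher and 8 lower, beside 15.5% each way. Of 42 tested cell cycle genes, 5 had an unadjusted p under 0.05 higher in KO and 3 lower, beside 3.39% and 3.89% of all tested genes, and 11 were higher without overlap and 3 lower, beside 15.5% each way. Most were low, with 7 members at 10 CPM or more, and the list summed to 217 and 182 CPM in WT and 206 and 227 CPM in KO. The median log2 fold change was 0.03, and 0.69 without WT liver 1. Mki67, a marker of dividing cells, had 2 and 14 counts in WT and 1 and 0 in KO. Most members without overlap went the other way. EdgeR without the filter on low counts called 1 of the 42 higher, Cdk1 (adjusted p = 9.6e-06), and 1 lower, Cdkn1a (3.9e-08). That fit called 39 higher and 72 lower of 21045 genes.

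T cell and neutrophil markers were low in all 4 livers, while B and plasma cell markers summed to 646 and 553 CPM in WT and 639 and 642 CPM in KO. T and NK cell markers summed to 15.5 and 12.5 CPM in WT and 26.1 and 21.1 CPM in KO liver, neutrophil markers to 84.3 and 46.5 against 19.6 and 39.1 CPM, and endothelial markers to 720 and 875 against 821 and 808 CPM. Of 10 tested neutrophil markers, 1 had an unadjusted p under 0.05 higher in KO (Retnlg) and 1 lower (S100a8). The shares of all tested genes were 3.39% and 3.89%. The median log2 fold change of the 10 was -0.88, and without WT liver 1 the median of the list was 0. S100a8, a neutrophil protein, was at 12 and 17.4 CPM in WT and 2.8 and 4.39 CPM in KO (log2 fold change -2.04, SE 0.89, adjusted p = 0.68). Red blood cell genes summed to 1897 and 2045 CPM in WT and 2995 and 2537 CPM in KO, with Hba-a1 at 1096 and 1069 against 2014 and 1654 CPM. Their part in the other differences was not tested.

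Interferon response genes had 14 of 44 members higher in KO without overlap and 5 lower, against 15.5% of all tested genes in each direction, with a median log2 fold change of 0.22. An unadjusted p under 0.05 was found for 4 of the 44 higher and 2 lower, beside 3.39% and 3.89% of all tested genes. Gbp3, Ifi44, Tap1 and Psmb8 were the higher genes, and Ifi27 and Ifit2 the lower. The summed level of the list was 1182 and 1247 CPM in WT and 1239 and 1366 CPM in KO liver, so that the libraries of the 2 genotypes overlapped. Major histocompatibility class II genes, which antigen-presenting cells use, had 9 of 11 positive log2 fold changes, 2 of them without overlap, with a median of 0.47. Without WT liver 1, 7 of the 11 were positive and the median was 0.09. Their summed levels were 68 and 118 CPM in WT and 142 and 93.3 CPM in KO.

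**Figure D5:**
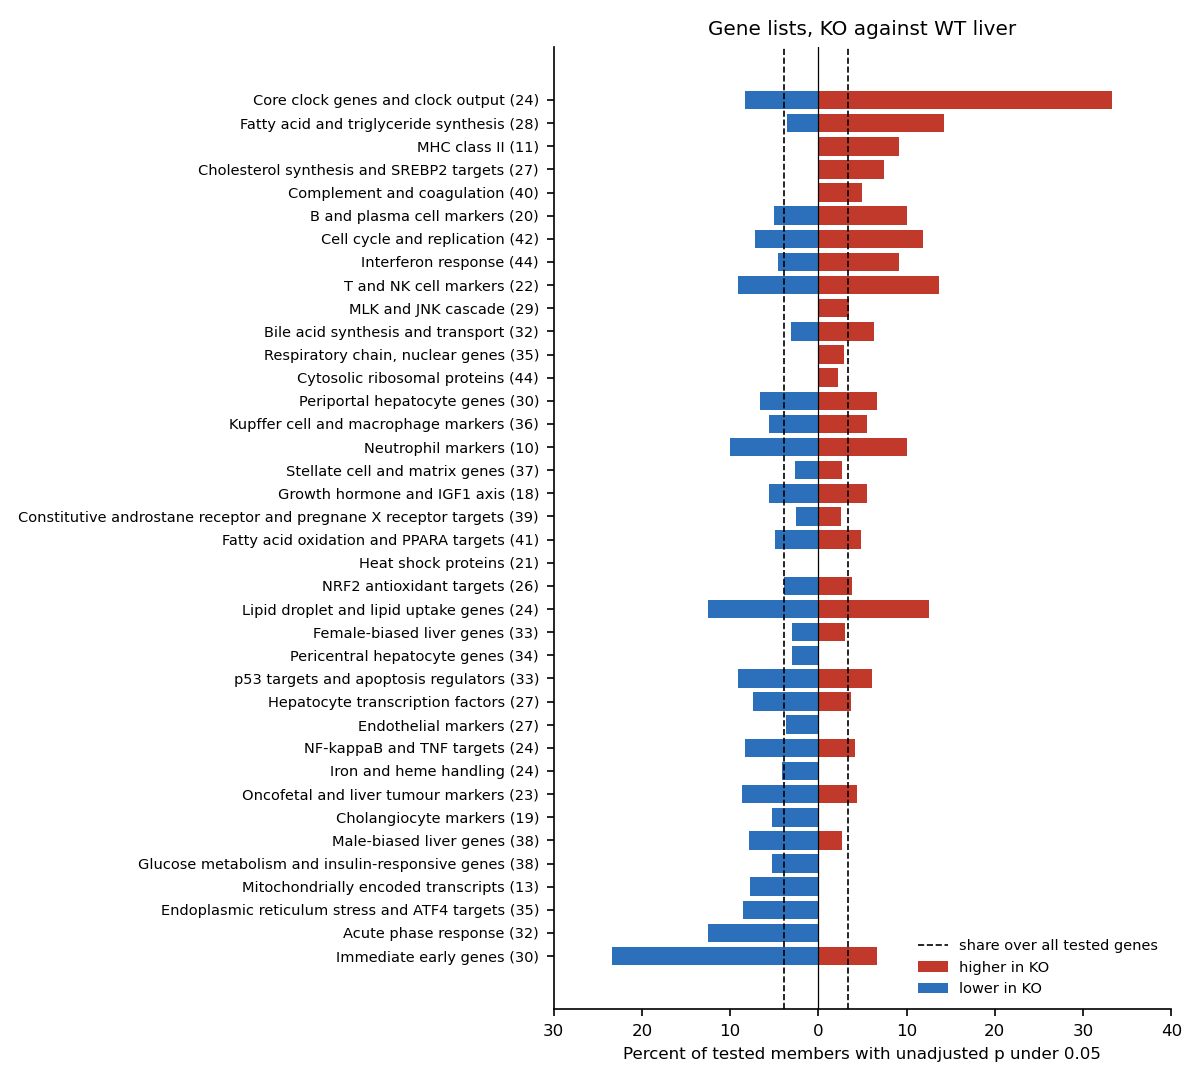
Percent of tested members with an unadjusted p under 0.05, higher (red, to the right) or lower (blue, to the left) in KO liver, for the gene lists with at least 10 tested members (number in brackets). Dashed lines mark the shares over all tested genes, 3.39% higher and 3.89% lower. The clock list reaches farthest to the right with 8 of 24 and the immediate early genes farthest to the left with 7 of 30.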

How the data were processed

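RNA of 10 mouse liver and liver tumour samples, 50 ng each, was made into strand-specific QuantSeq 3' FWD libraries, per the labels' protocols. The authors deposited 1 table of raw counts per gene, made with BWA, featureCounts and genome build mm10, per the submitters' processing notes. The sources used here do not give their settings, the strand option included. Of 39056 gene identifiers, 38872 matched a symbol, with positions, in GENCODE release M21 (GRCm38). Groups were taken from the sample titles. Counts of all 10 libraries were fitted with edgeR 4.0.16 in R 4.3.3: TMM scaling, filterByExpr, 1 term per group, the quasi-likelihood test and Benjamini-Hochberg adjustment over 15811 genes. Called means an adjusted p under 0.05. The design left 6 residual degrees of freedom, so the tumours contribute to the estimate of spread. The interaction is the KO minus WT difference in liver minus that in tumours. The procedure was tested on simulated data. No source says whether the samples of a group came from separate animals, and if they did not, p-values measure only the spread between these samples.

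The genes named by rule were Map3k11, its relatives Map3k9 and Map3k10, Mapk8, Mapk9, Fam102b, Marco, Glul, Cyp2f2, Cyp2b10, Alb, tested clock genes and called genes. To these came, per direction, the 12 smallest p among genes without overlap whose higher group had a mean of at least 5 CPM. Predicted names, such as Gm numbers, were not taken into these 12. DESeq2 and edgeR without the filter called Gm10800, one such name, lower (adjusted p = 1.4e-05 and 1.9e-22). Added too were the 2 smallest p of each of 41 lists, and neighbours of Map3k11 within 2 Mb with an unadjusted p under 0.05. Other genes in the text were chosen after their values were seen, and some genes named by the rule are not reported here. The comparison, its members and the lists were chosen with earlier results of these data known. Alternatives were RLE scaling, DESeq2 1.42.0, no filter, the 4 livers alone, limma 3.58.1 voom, a replicate block, a test against a 1.5-fold change and leaving out each library. A count of 0 was given a limit of 3 counts per library, which is 0.172 to 0.212 CPM in the livers. This limit and the 95% counting intervals cover counting error only.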

Additional observations from a re-analysis of the deposited data

Results flagged for a closer look

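The genotype difference in liver differed from that in tumours (interaction called by edgeR at an adjusted p under 0.05) for 22 of the genes named by rule. Values are the KO minus WT log2 difference in liver minus that in tumours, and those of genes with few or no counts in a group depend on the prior count. The difference was more negative in liver for Fam102b (-7.57), Rsg1 (-11.3), Mup9 (-7.18), Exoc3l4 (-7.07), Elovl3 (-6.87), Leap2 (-4.27), G6pc (-3.95), Cyp2f2 (-3.91), Timm22 (-3.66), Glul (-3.59), Nfil3 (-3.03) and G0s2 (-2.96). It was more positive in liver for Pnpla3 (7.84), Npdc1 (7.24), Klf16 (6.93), Nckap1l (5.31), Cyp2a4 (3.82), Per3 (2.98), Tstd1 (2.94), Ddx56 (1.85), Igfbp2 (1.74) and Alb (1.43). With each of the 10 libraries left out in turn, the interaction was called in all 10 fits for Fam102b, Per3, Nckap1l, Leap2, Mup9, Elovl3, G6pc, G0s2, Glul and Cyp2f2. It was called in 9 fits for Klf16 and Cyp2a4, in 8 for Npdc1, and in 1 to 5 for the remaining 9 genes. Tissue and treatment differ together between the livers and the tumours and cannot be told apart.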

How the results depend on the processing

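Counts of called genes depended on the tool and filter. Higher and lower calls numbered 64 and 87 with DESeq2 and 39 and 72 without a filter on low counts, against 0 and 1. With the replicate block they were 1 and 0, and 0 genes were called lower with the 4 livers alone, with limma voom or against a 1.5-fold change. Leaving out 1 library gave 0 to 3 higher and 0 to 6 lower calls. Counts without overlap at 5 CPM were 453 and 488. For Fam102b the log2 fold change was -9.12 with the livers alone (adjusted p = 0.99), -7.07 with voom (0.90), -9.05 with the block (0.11), -9.06 against a 1.5-fold change (0.054) and -9.33 to -8.70 with a library left out (0.013 to 0.27). The cause was not tested. Replicate numbers did not pair the samples (r = 0.00715 between the replicate differences of the genotypes over 7382 genes), and with the block Marco passed (adjusted p = 0.029).

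With 1 library left out, the log2 fold change turned sign within these ranges: Mt1 (-4.44 to 0.60), Mt2 (-6.76 to 0.071), Ighg2b (-3.10 to 6.74), G6pdx (-2.26 to 7.38), Hsph1 (-1.87 to 0.0104), Hspa1b (-2.22 to 0.59), Bhlhe41 (-0.084 to 0.84), Csnk1e (-1.04 to 0.21), Tnnt3 (-3.47 to 0.0201), Noct (-3.77 to 0.069), Cyp2b10 (-7.36 to 6.36), Mapk8 (-0.74 to 0.52, turned also at 0.26), Per1 (-9.14 to 1.64, turned also at 0.66), Map3k10 (-0.56 to 4.95, turned also at -0.52), Csnk1d (-0.21 to 0.081, turned also at 0.05), Rora (-0.23 to 0.15, turned also at 0.093). None of these 16 was called by edgeR with all libraries and the filter on low counts. Without that filter, Mt1 and Mt2 were called lower (adjusted p = 8.8e-25 and 8.2e-43). Lists without WT liver 1, and tumour values without KO tumour 2, were added after the data were seen.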

Other observations

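Of the 24 genes named by smallest p in liver, Ifi207, Cep170 and Adss lie within 4.07 Mb of chromosome 1 (173723427 to 177796511, GRCm38). This window was chosen after the values were seen. Of its 22 tested genes 18.2% had an unadjusted p under 0.05 in liver, against 7.28% of all tested genes, a share that includes the 3 genes for which the window was chosen. Without overlap were 31.8%, against 31% of all tested genes.

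Timm22 on chromosome 11 and Dennd4a on chromosome 9 had counts in a like ratio in most libraries. The count of Timm22 over that of Dennd4a was 2.52 and 2.41 in the WT livers, 1.22 and 1.98 in the KO livers and 1.85 to 2.43 in the 6 tumours.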
